A study of Mus musculus with 4 samples.

Results

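Efferocytosis, the engulfment of dying cells, loads a macrophage with foreign lipids, proteins and iron. In sorted bone marrow (BM) macrophages that had or had not engulfed apoptotic cancer cells, the transcripts of 37 genes of glutathione, thioredoxin and peroxide defence were measured. The genes were taken by symbol from the 31053 genes in the count matrices, and all 37 were among the 13869 genes with enough counts to be tested. They cover the regulator NRF2 and its brake, glutathione synthesis, the thioredoxin system, peroxiredoxins, glutathione peroxidases, superoxide dismutases, catalase, glutathione transferases and subunits of the phagocyte NADPH oxidase.

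Cells control hydrogen peroxide with a pair of thiol systems that both draw on NADPH. Glutathione is built from cystine brought in by the transporter xCT, and glutathione peroxidases and transferases spend it, while thioredoxin recycles the peroxiredoxins. NRF2, held back by KEAP1 and released when KEAP1 is oxidised, turns on many of these genes through the antioxidant response element (ARE), whereas the NADPH oxidase of phagocytes makes superoxide on purpose.

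The cells were BM macrophages of male C57BL/6J mice aged 4 to 6 weeks, grown with M-CSF. Efferocytic BM macrophages (F4/80+CFSE+) had been kept for 16 to 18 h with apoptotic RM1 cells, a mouse prostate cancer line that carried the dye CFSE, and were sorted for the dye together with the macrophage protein F4/80. Non-efferocytic BM macrophages (F4/80+) were sorted without the dye. The sources differ on where they came from, since the labels read as if both populations were sorted from the co-culture, while the study's discussion calls the controls macrophages alone. In the first case the comparison is of engulfment among exposed cells, and in the second exposure to apoptotic cells and engulfment cannot be told apart. Each of 2 experiments gave 1 library of either group, made with droplet single-cell RNA sequencing of 3′ ends. Nothing in the labels says whether a library holds cells of 1 mouse or of several. The study's methods state that its BM macrophage experiments used several independent mice per group, but not how mice were divided among these libraries. P-values therefore measure the spread between these 4 libraries, which may be technical. The test estimates that spread in part from all genes together, and not from each gene alone.

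A barcode counted as a cell when it held 200 or more genes, 1000 or more UMIs (unique molecular identifiers, each standing for 1 captured RNA molecule) and no more than 10% mitochondrial UMIs. Experiment 1 gave 8280 non-efferocytic and 6695 efferocytic cells and Experiment 2 gave 13411 and 8408, with 101216659 to 155224183 UMIs per library. The 10 macrophage markers examined were present in every library and summed to 39412 and 33992 CPM (UMIs per 1000000 UMIs in the cells of a library) in the non-efferocytic and to 31384 and 23679 CPM in the efferocytic libraries of Experiments 1 and 2, with 9 lower in both experiments and Cd68 higher. The part of this difference in the results was not tested. Markers of the neutrophil lineage summed to 3090 and 3399 CPM in the non-efferocytic libraries and to 977 and 738 CPM in the efferocytic libraries. Markers of fibroblasts summed to 156 and 132 CPM against 51.6 and 58.8 CPM. The 8 RM1 or epithelial markers summed to 0.573 (non-efferocytic) and 0.120 CPM (efferocytic) in Experiment 1 and to 10.97 and 9.03 CPM in Experiment 2. The study lists RM1 as fibroblast-like, and whether RM1 cells express these epithelial genes was not tested. The sums are therefore no measure of RM1 RNA. RNA of engulfed RM1 cells, also from mouse, would be counted with that of the macrophages, and its share was not tested. The libraries of Experiment 2 had 118 cell barcodes in common, where other pairs of libraries had 14 to 23.

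The 37 genes together took 1.47% of the UMIs in non-efferocytic and 1.73% in efferocytic BM macrophages of Experiment 1, and 1.64% and 1.65% in Experiment 2. Prdx1, Cyba and Txn1 were the most abundant and Nqo1 and Slc7a11 the least, in UMIs of 3′ ends, which do not grow with the length of a gene. In efferocytic BM macrophages 6 of the 37 genes were significantly higher and 9 significantly lower (edgeR's quasi-likelihood test with the experiment as a block, adjusted p under 0.05). Over all genes tested, 19.9% were called higher, 19% lower and 38.9% either way. The shares among the 37 genes, 16.2% higher and 24.3% lower, were near that background, and their median log2 fold change was 0.06 against -0.02 for all genes. The background is not matched for level, since the median gene was at 110 CPM among the 37 and at 10.6 CPM among all genes tested. At an unadjusted p under 0.05 (edgeR) there were 21 of the 37, a count for which no share over all genes is given. Both efferocytic libraries lay above both non-efferocytic libraries in CPM for 10 of the 37 genes and below both for 11, where 22.2% and 44.7% of all genes tested did so. The calls rest on the pairing of libraries by experiment. Without the block edgeR called 3 of the 37 genes higher and 1 lower (Gstm1, Gsto1, Mgst3 and Osgin1), against 9.27% and 7.74% of all genes, and with either non-efferocytic library left out it called 0. Of all genes tested, 0% were then called higher and 0.0141% lower (that of Experiment 1 left out), or 0% either way (that of Experiment 2). At an unadjusted p under 0.05, edgeR gave 3 of the 37 genes higher and 4 lower in the first case and 7 and 5 in the second. No share over all genes is given at the unadjusted threshold, so counts at it do not compare with the shares of adjusted calls. In fits with 1 library left out, the lone library of a group is assumed to vary like the 2 of the other group, which give all of the spread. With the efferocytic library of Experiment 1 left out the calls were 2 higher and 6 lower, against 11.5% and 8.86% of all genes. With that of Experiment 2 left out they were 3 higher and 0 lower, against 4.44% and 4.04% of all genes, with 4 lower at an unadjusted p under 0.05 (edgeR).

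**Figure D1:**
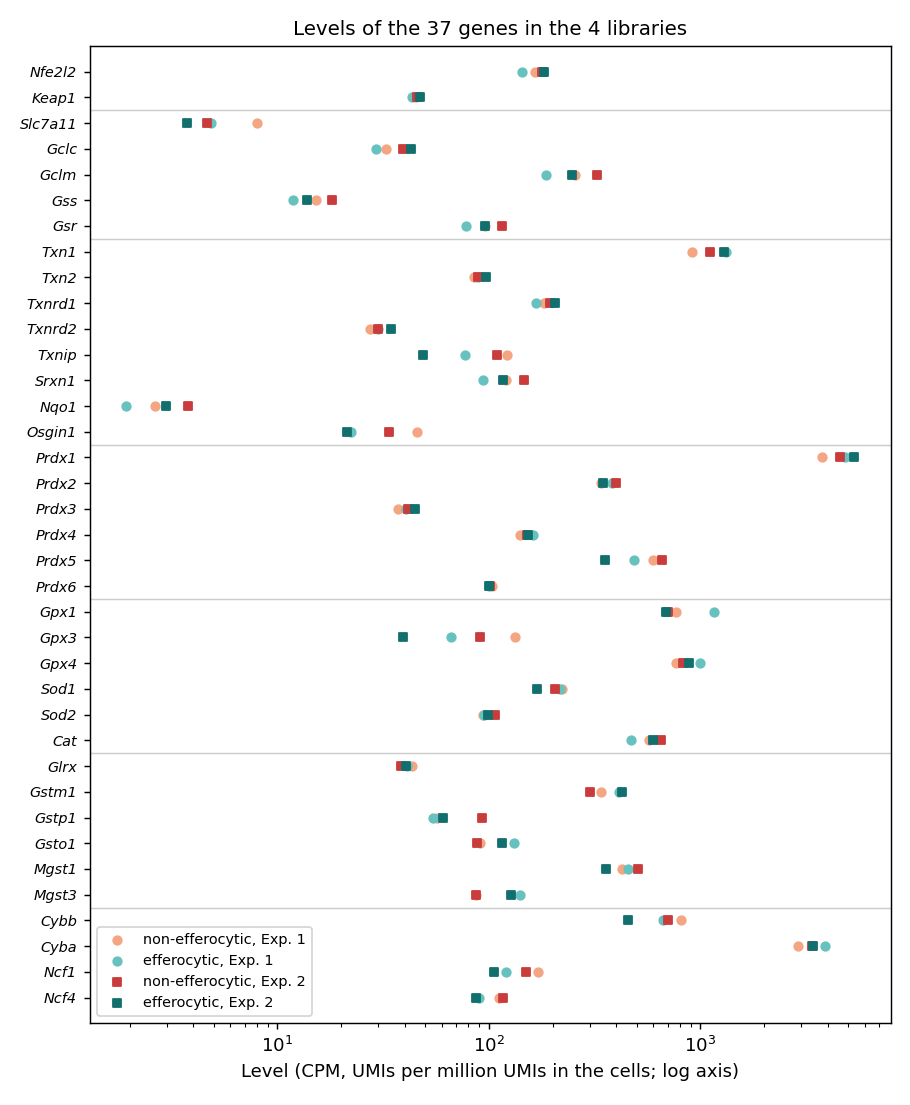
Level of each of the 37 genes in CPM (log axis) in the 4 libraries, with circles for Experiment 1, squares for Experiment 2, red shades for non-efferocytic and green shades for efferocytic BM macrophages, and lines between the roles. Levels ran from 1.93 CPM for Nqo1 to 5336 CPM for Prdx1, and the libraries of a gene mostly lay close together against that range.

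All fold changes below compare efferocytic with non-efferocytic BM macrophages, with 2 libraries per group, and carry their standard error (SE). They are of TMM-normalized counts, which shifted them up against ratios of plain CPM, so that a gene with equal CPM has a log2 fold change a little above 0. For small fold changes the shift is a large part of the value. Prdx3 had log2 ratios of CPM of 0.13 and 0.11 and a log2 fold change of 0.23. CPM measures a gene's share of the RNA and not its amount per cell.

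**Figure D2:**
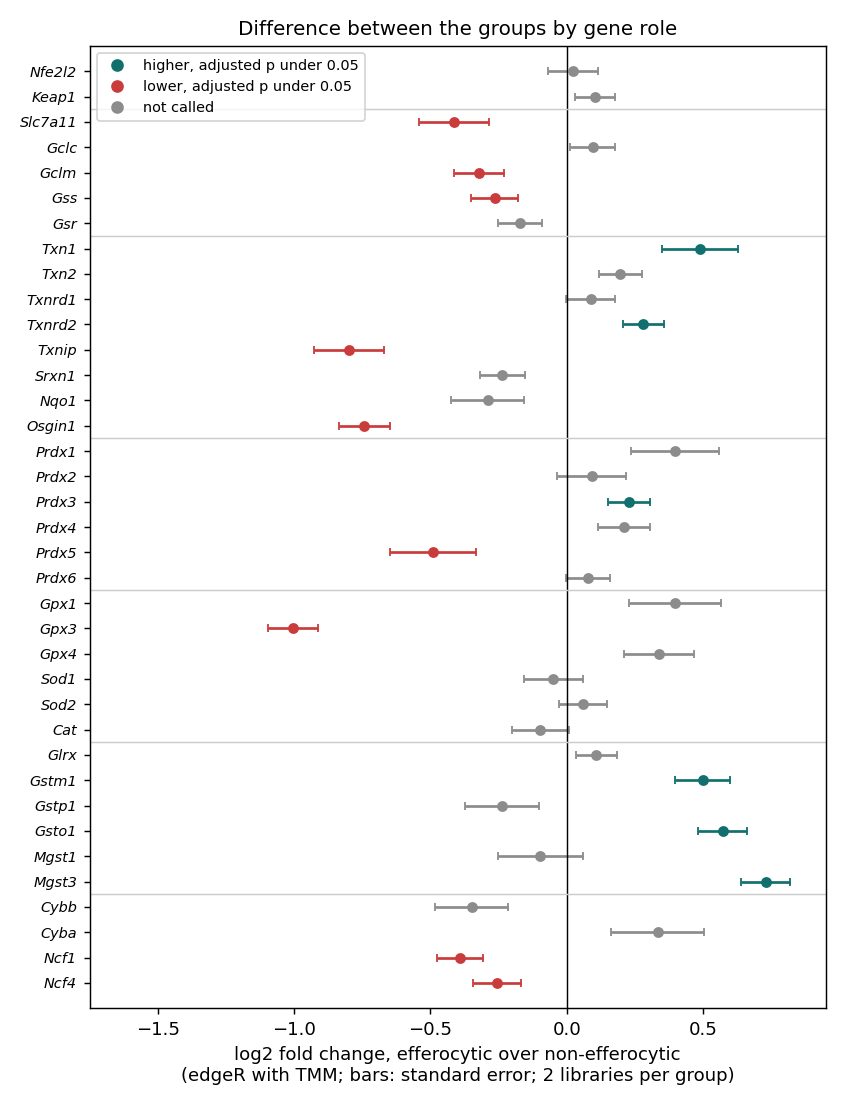
Log2 fold change of each gene (edgeR with TMM, efferocytic over non-efferocytic) by role, with bars for the standard error, in green for genes called higher, red for genes called lower and grey for the rest. Mgst3 (0.73) lay at the upper end and Gpx3 (-1.005) at the lower end.

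The regulator pair did not pass the test. Nfe2l2, which encodes NRF2, was at 165 and 178 CPM in the non-efferocytic libraries and at 143 and 182 CPM in the efferocytic libraries of Experiments 1 and 2. Keap1, which encodes the protein that targets NRF2 for degradation, was at 45.4 and 45.5 against 43.3 and 47.4 CPM. The groups overlapped for both genes, and their log2 fold changes were 0.02 ± 0.09 and 0.10 ± 0.07 (SE). NRF2 is controlled largely at the protein level, which was not measured here.

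Because NRF2 acts through the ARE, promoters were searched for its core, TGACNNNGC, on both strands. Promoters were RefSeq sequences on GRCm38.p6 from 250 bases before to 50 bases after each annotated start. The table held 33 of the 37 genes, and 7 of these (21.2%) had a match, against 14.0% of the 27025 genes with a promoter. The 7 matches are shown with the bases around them because they name the members whose promoters carry these letters. Capitals mark the core, which reads GCNNNGTCA where it lies on the other strand, and all sequences run 5′ to 3′ along the gene.
Nfe2l2: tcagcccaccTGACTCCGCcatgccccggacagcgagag
Srxn1: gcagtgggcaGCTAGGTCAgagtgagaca
Gclm: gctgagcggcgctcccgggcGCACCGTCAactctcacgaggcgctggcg
Prdx1: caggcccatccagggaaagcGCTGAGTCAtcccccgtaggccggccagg
Mgst1: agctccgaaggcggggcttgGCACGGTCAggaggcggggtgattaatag
Txnrd1: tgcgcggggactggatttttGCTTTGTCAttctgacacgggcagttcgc
Sod1: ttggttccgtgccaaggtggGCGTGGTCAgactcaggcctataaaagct

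These stretches lie at chr2:75704875-75704913 (Nfe2l2, minus strand), chr2:152105542-152105570 (Srxn1), chr3:122245403-122245451 (Gclm), chr4:116685446-116685494 (Prdx1), chr6:138140451-138140499 (Mgst1), chr10:82859094-82859142 (Txnrd1) and chr16:90220686-90220734 (Sod1), the last 6 on the plus strand. The core began 240 bases before the start in Nfe2l2, 134 in Gclm, 133 in Prdx1, 92 in Txnrd1 and 56 in Mgst1 and in Sod1, and 28 bases after it in Srxn1. In Prdx1 it overlapped a match to the AP-1 motif TGANTCA. That motif was found in 6 of the 33 promoters (18.2%) and in 8.97% of all genes, and the HIF core ACGTG in 7 (21.2%) and 21.8%. Of the 7 genes with an ARE core, Gclm was called lower and the others were not called. A match is no evidence of binding, and AREs that lie farther from the start are not seen in this window.

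Genes that make glutathione fell or did not pass the test. Slc7a11 encodes xCT, the cystine transporter, and was rare, at 8.03 and 4.63 CPM in the non-efferocytic libraries and 4.85 and 3.74 CPM in the efferocytic libraries. The groups overlapped across experiments, and within each experiment the efferocytic library was lower (log2 fold change -0.41 ± 0.13, edgeR adjusted p = 0.0347). The value moved with every library left out, to 0.006 and -0.79 without the non-efferocytic and to -0.68 and -0.23 without the efferocytic library of Experiments 1 and 2. Slc3a2, the partner chain of xCT and of other transporters, was at 170 and 168 against 158 and 179 CPM and did not pass.

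Gclm and Gclc encode the modifier and the catalytic subunit of glutamate-cysteine ligase, which sets the pace of glutathione synthesis. Gclm was at 256 and 325 CPM in the non-efferocytic libraries and at 186 and 247 CPM in the efferocytic libraries. Both efferocytic values lay below both others, and Gclm fell by 0.32 on the log2 scale (SE 0.09, edgeR adjusted p = 0.027). It was -0.16 without the efferocytic library of Experiment 1, -0.14 without the non-efferocytic and -0.49 without the efferocytic library of Experiment 2. Gclc, at 32.6 and 39.3 against 29.2 and 43.0 CPM, was lower in one experiment and higher in the other and did not pass (0.10 ± 0.08). Gss, the synthetase of the second step, was at 15.2 and 18.1 CPM against 11.9 and 13.9 CPM. Its groups did not overlap, and it fell by 0.26 on the log2 scale (SE 0.08, edgeR adjusted p = 0.0395). It was -0.13 without the non-efferocytic library of Experiment 2, and Gss overlaps Acss2 on the other strand. Gsr, the reductase that regenerates glutathione, was at 95.6 and 115 against 77.8 and 96.1 CPM, with overlapping groups and no call (-0.17 ± 0.08, edgeR adjusted p = 0.126). Its value ran from -0.29 to -0.03 with 1 library left out.

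In the thioredoxin system Txn1 and its inhibitor Txnip changed in opposite directions. Txn1, the cytosolic thioredoxin, was at 911 and 1107 CPM in the non-efferocytic libraries and at 1321 and 1296 CPM in the efferocytic libraries. Both efferocytic values were above both others, a log2 fold change of 0.49 ± 0.14 (edgeR adjusted p = 0.0256). Txnip, which encodes the protein that binds and inhibits thioredoxin and responds to glucose supply, was at 122 and 109 CPM against 77.2 and 48.9 CPM. The groups did not overlap, and Txnip fell by 0.80 on the log2 scale (SE 0.13, edgeR adjusted p = 0.00261), or by 0.43 without the efferocytic library of Experiment 2.

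The mitochondrial reductase Txnrd2 was at 27.3 and 29.8 CPM against 30.0 and 34.5 CPM, a small and called difference (0.28 ± 0.07, edgeR adjusted p = 0.0202). Its log2 ratios of plain CPM were 0.14 and 0.21, and it was called under 8 of 14 alternatives other than UMIs per cell. Txnrd1, the cytosolic reductase, was at 181 and 195 against 167 and 206 CPM, with overlapping groups and no call (0.09 ± 0.09). Mitochondrial Txn2, at 85.5 and 88.5 against 88.7 and 96.4 CPM, was not called either (0.20 ± 0.08, edgeR adjusted p = 0.0833). Over the 8 genes of the thioredoxin system and NRF2 targets, 2 were called higher and 2 lower (25% each, against 19.9% and 19% of all genes).

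Among further NRF2 targets, Osgin1, an oxidative stress induced growth inhibitor, was at 45.8 and 33.5 CPM in the non-efferocytic and at 22.2 and 21.3 CPM in the efferocytic libraries. The groups did not overlap, with a wider spread between the non-efferocytic than between the efferocytic libraries, and Osgin1 fell by 0.74 on the log2 scale (SE 0.09, edgeR adjusted p = 0.000888). Srxn1, the sulfiredoxin that repairs overoxidised peroxiredoxins, was at 120 and 146 against 93.7 and 117 CPM and missed the threshold (-0.24 ± 0.08, edgeR adjusted p = 0.0534). With 1 library left out its value ran from -0.37 to -0.08. Nqo1, a quinone reductase and the usual reporter of NRF2, was scarce in every library, at 2.63 and 3.79 against 1.93 and 2.98 CPM. It was not called (-0.29 ± 0.13), and its groups overlapped.

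Of the peroxiredoxins, enzymes that reduce peroxides with a reactive cysteine, 1 of 6 was called higher and 1 lower. That share, 16.7% each, was near the background of 19.9% and 19%. Prdx1, the main cytosolic member, was at 3766 and 4594 CPM in the non-efferocytic libraries and at 4846 and 5336 CPM in the efferocytic libraries. The groups did not overlap, and the log2 ratios of CPM were 0.36 and 0.22 in Experiments 1 and 2. Prdx1 was nevertheless not called (0.40 ± 0.16, edgeR adjusted p = 0.0869). Prdx5, found in mitochondria, peroxisomes and the cytosol, was at 600 and 661 against 487 and 356 CPM. It was below in both experiments, more so in Experiment 2, and fell by 0.49 on the log2 scale (SE 0.16, edgeR adjusted p = 0.0419). With the efferocytic library of Experiment 1 left out the value was -0.75, and with that of Experiment 2 left out -0.22. Prdx3, the mitochondrial member, was at 37.1 and 41.6 against 40.7 and 44.96 CPM, and was called higher although its groups overlapped (0.23 ± 0.08, edgeR adjusted p = 0.0445, or 0.15 without the non-efferocytic library of Experiment 1). It was called under 4 of 14 alternatives other than UMIs per cell, with values from -0.02 to 0.25.

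Cytosolic Prdx2 was at 338 and 398 against 381 and 346 CPM, with ratios of opposite sign in the experiments. Prdx4, the member of the endoplasmic reticulum, was at 141 and 152 against 161 and 154 CPM. Prdx6, which uses glutathione, was at 103 and 101 against 100 CPM in both efferocytic libraries. None of these was called, with log2 fold changes from 0.08 to 0.21. Prdx2 overlaps Rnaseh2a and Junb, and Prdx5 overlaps Trmt112, each on the other strand. Prdx6 has a named pseudogene, Prdx6-ps2, with which its reads could be shared.

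The selenium enzymes that reduce peroxides with glutathione differed most from one another. Gpx3, the secreted glutathione peroxidase, was at 133 and 90.5 CPM in the non-efferocytic libraries and at 65.9 and 39.2 CPM in the efferocytic libraries. It was lower by about the same ratio in both experiments, 2.01-fold in the fit (log2 fold change -1.005 ± 0.09, edgeR adjusted p = 0.000235), the largest change of the 37 genes by share. It was -0.66 without the non-efferocytic library of Experiment 1 and -0.61 without the efferocytic library of Experiment 2. In a fit to cells with 10000 to 20000 UMIs alone, Gpx3 was at -0.63 and still called, and Prdx5 stood lower there, at -0.70. Gpx1, the abundant cytosolic enzyme, was at 764 and 701 against 1162 and 690 CPM. Its efferocytic library stood high in Experiment 1 alone, and it was not called (0.40 ± 0.17, edgeR adjusted p = 0.0967). Without the efferocytic library of Experiment 2 it was 0.81 and called (edgeR adjusted p = 0.0289), and without that of Experiment 1 it was -0.01. Gpx4, which reduces lipid peroxides in membranes and holds off ferroptosis, was at 771 and 826 against 991 and 888 CPM. Its groups did not overlap, but it missed the threshold (0.34 ± 0.13, edgeR adjusted p = 0.0681). Gpx4 has a named pseudogene, Gpx4-ps2.

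Enzymes for superoxide and for bulk hydrogen peroxide showed no call over all cells. Sod1, the cytosolic superoxide dismutase, was at 222 and 205 against 218 and 169 CPM. Sod2, its mitochondrial counterpart, was at 94.1 and 107 against 95.2 and 98.6 CPM. Catalase (Cat) was at 570 and 654 against 472 and 595 CPM. All 3 pairs of groups overlapped, and the log2 fold changes lay between -0.10 and 0.06. Sod2 was, however, called lower among cells with 10000 to 20000 UMIs (-0.28, edgeR adjusted p = 0.0358) and was lower in all 6 comparisons at matched depth (3 bands of UMIs per cell in each of 2 experiments).

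Of the 6 genes of glutaredoxin and the glutathione transferases, 3 were called higher, all transferases, and none lower, against 19.9% and 19% of all genes. Mgst3, a microsomal enzyme with transferase and peroxidase activity, was at 86.7 CPM in both non-efferocytic libraries and at 140 and 128 CPM in the efferocytic libraries. The groups were far apart against their spread (0.73 ± 0.09, edgeR adjusted p = 0.000814). Gsto1, an omega-class enzyme with glutaredoxin-like activity, was at 90.6 and 87.8 against 131 and 116 CPM (0.57 ± 0.09, edgeR adjusted p = 0.00221). Gstm1, a mu-class enzyme that conjugates glutathione to electrophiles, was at 341 and 302 against 415 and 427 CPM (0.50 ± 0.10, edgeR adjusted p = 0.00662). Neither pair of groups overlapped. Gsto1 overlaps Cfap43 on the other strand, and Gstm1 has close paralogs between which 3′ reads may be split.

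The other members of this group were not called. Mgst1, the best known microsomal transferase, was at 425 and 505 against 454 and 357 CPM, with opposite signs in the experiments. Gstp1, of the pi class and nearly identical to Gstp2, was at 56.7 and 93.0 against 54.2 and 60.5 CPM. Glrx, the cytosolic glutaredoxin, was at 43.3 and 38.4 against 41.2 and 40.5 CPM. Their groups overlapped, and their log2 fold changes were -0.10 ± 0.16, -0.24 ± 0.14 and 0.11 ± 0.07.

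The source of superoxide was the last group. Ncf1 encodes p47phox, the cytosolic organizer of the phagocyte NADPH oxidase, and was at 170 and 150 CPM in the non-efferocytic and at 121 and 106 CPM in the efferocytic libraries. It fell by 0.39 on the log2 scale with no overlap of the groups (SE 0.09, edgeR adjusted p = 0.0089), or by 0.26 without the efferocytic library of Experiment 2. Ncf4, which encodes p40phox, was at 111 and 117 against 90.1 and 87.1 CPM, and was called lower at the very edge of the threshold (-0.26 ± 0.09, edgeR adjusted p = 0.04999), and under 6 of 14 alternatives other than UMIs per cell.

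The membrane chains of the oxidase did not pass. Cybb, the catalytic chain gp91phox, was at 809 and 704 against 669 and 453 CPM, lower in both experiments (-0.35 ± 0.13, edgeR adjusted p = 0.071). The value was -0.66 and called without the efferocytic library of Experiment 1 (edgeR adjusted p = 0.0329), -0.03 without that of Experiment 2 and -0.21 without the non-efferocytic library of Experiment 1. Cyba, its partner p22phox, was at 2912 and 3356 against 3905 and 3428 CPM, with a difference in Experiment 1 and nearly none in Experiment 2 (0.33 ± 0.17, edgeR adjusted p = 0.153). The value of Cyba ran from 0.20 to 0.47 with 1 library left out. The groups did not overlap for either chain, and the sides were opposite. Ncf1 overlaps Gtf2ird2 and Cyba overlaps Gm20388 on the other strand.

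Neutrophils also carry the oxidase. Because their markers were lower in the efferocytic libraries, cells with at least 0.2% of their UMIs in neutrophil markers were looked at apart. There were 76 and 200 such cells in the non-efferocytic libraries and 25 in each efferocytic library. Ncf1 was 2.52 to 3.30-fold, Ncf4 2.65 to 3.85-fold, Prdx5 2.97 to 4.96-fold, Gsr 4.28 to 7.12-fold and Glrx 4.99 to 5.86-fold higher per UMI in them than in cells outside all marker gates. Cybb was 1.37 to 1.59-fold higher and Cyba lower, at 0.697 to 0.838 of the level outside. Of the 37 genes, 7 were higher and 24 lower in these cells in every library. No share over all genes is given beside this count, so it is not read as particular to the 37 genes. The cells of this gate held 3.39% and 3.98% of the Ncf1 UMIs in the non-efferocytic libraries of Experiments 1 and 2. For Glrx they held 6.38% and 8.16%. Among cells outside all gates, the log2 ratios of CPM in Experiments 1 and 2 were -0.48 and -0.47 for Ncf1, -0.28 and -0.40 for Ncf4, and -0.26 and -0.87 for Prdx5, close to those of all cells. With cells of the neutrophil, fibroblast and RM1 or epithelial gates left out, 5 of the 37 genes were called higher and 8 lower. Of all genes, 18% and 17.1% were. Ncf1 remained called (edgeR adjusted p = 0.0121). Prdx5 (-0.50, edgeR adjusted p = 0.0649) and Ncf4 (-0.27, edgeR adjusted p = 0.0517) lost their calls at fold changes of about the same size, Prdx3 lost its call (0.20, edgeR adjusted p = 0.0808), and Srxn1 gained one (-0.29, edgeR adjusted p = 0.0338).

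The experiments were then set side by side. The ratio of CPM had the same sign in both for 28 of the 37 genes, 11 higher and 17 lower, and opposite signs for 9. No share over all genes is given for these signs, so they are not read as particular to the 37 genes. Plain CPM leaned lower over all genes, with both efferocytic libraries below in 44.7% and above in 22.2%. For Ncf1 the log2 ratios were alike at -0.50 in each, for Gpx3 they were -1.02 and -1.21, and for Mgst3 0.69 and 0.56. Gpx1 (0.60 and -0.02), Mgst1 (0.09 and -0.50) and Gstp1 (-0.06 and -0.62) each had a ratio far from 0 in one experiment alone. With 1 library per group in an experiment, the difference between experiments was not tested.

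**Figure D3:**
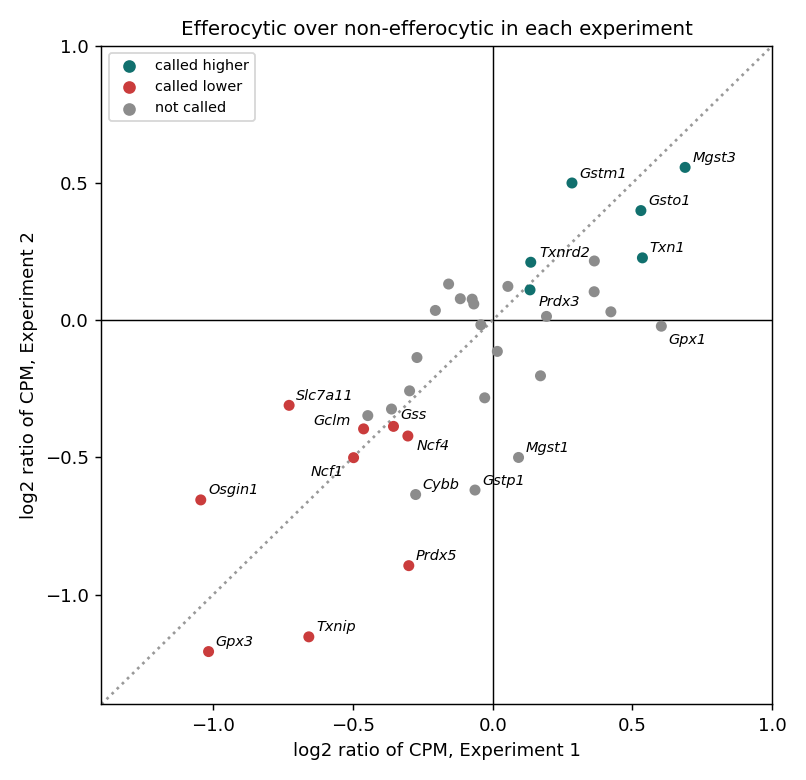
Log2 ratio of CPM, efferocytic over non-efferocytic BM macrophages, in Experiment 1 (x axis) and Experiment 2 (y axis), 1 point per gene, with the dotted line where both are equal. Genes called lower (red) and higher (green) lie in opposite corners, while Gpx1 and Mgst1 lie near an axis or across it.

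Efferocytic cells yielded 1.53-fold and 1.79-fold as many UMIs per cell in Experiments 1 and 2, so shares and amounts per cell were compared. In Experiment 2 the ratio depends on which barcodes count as cells. A cut at 10% of the UMIs of the top barcodes left 10615 of 13411 non-efferocytic cells there. UMIs per cell were then 12620 (non-efferocytic) against 19475 (efferocytic), from 10316 against 18462, and 13217 against 20094 in Experiment 1. The values per cell below use all cells kept and were not recomputed with that cut. Counted per cell, 32 of the 37 genes were higher and 2 lower in both experiments, where 77.1% and 11.6% of all genes tested were. Prdx1 went from 46.0 to 90.5 UMIs per cell in Experiment 1 and from 47.4 to 98.5 in Experiment 2, and Txn1 from 11.1 to 24.7 and from 11.4 to 23.9. Mgst3 had the largest ratios, 2.46-fold and 2.63-fold. Only Gpx3 (1.63 to 1.23 and 0.934 to 0.724 UMIs per cell) and Txnip (1.49 to 1.44 and 1.12 to 0.902) were lower per cell in both.

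On a scale of UMIs per cell, all genes had a median log2 fold change of 0.60. On that scale edgeR called 23 of the 37 genes higher and 0 lower, and 0 were lower at an unadjusted p under 0.05 as well. Of all genes tested, 49.9% were called higher and 4.23% lower on that scale. There the 9 genes called lower by share had log2 fold changes from -0.39 (Gpx3) to 0.36. The 9 genes were called lower by share, and none of them passed the test per cell. For Gpx3, lower per cell in both experiments, the value was -0.39 ± 0.24 (edgeR adjusted p = 0.153), and for Txnip -0.18 ± 0.24 (edgeR adjusted p = 0.51), which do not show that their molecules per cell were unchanged. Whether the higher UMI number comes from more RNA in the cell or from its capture was not tested.

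**Figure D4:**
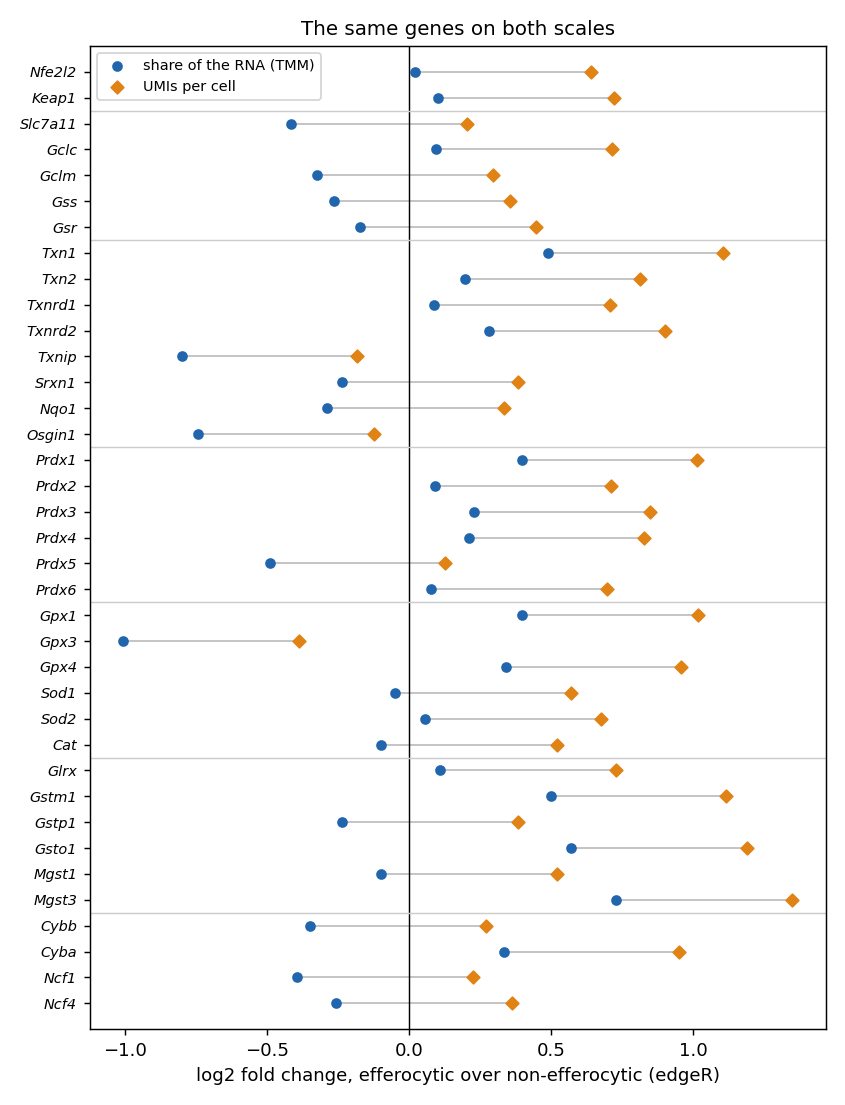
Log2 fold change of each gene by share of the RNA (circles) and by UMIs per cell (diamonds), both from edgeR, with a grey line joining the values of a gene. Every gene shifted to the right by a like amount, and Gpx3, Txnip and Osgin1 were the genes still below 0.

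To view cells on an equal footing, each was thinned to 5000 UMIs, which left 7181 and 6151 cells of Experiment 1 (non-efferocytic and efferocytic) and 10007 and 7903 of Experiment 2. The median cell then had 13 Prdx1 UMIs in the non-efferocytic and 19 in the efferocytic library of Experiment 1, and 17 and 23 in Experiment 2. The 10th and 90th percentiles, 6 and 31 against 9 and 40 in Experiment 1, show that the groups overlapped widely. For Cyba the medians were 13 and 18 in Experiment 1 and 15 and 16 in Experiment 2, and for Txn1 4 and 5, and 5 and 6. Most other genes had a median of 0 or 1 UMI at this depth, where single cells say little.

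Depth itself differed between the groups, so ratios were also taken among cells with 5000 to 10000, 10000 to 20000 and 20000 to 40000 UMIs, 3 bands in each of 2 experiments. All 9 genes called lower were lower in all 6 comparisons. Of the 6 genes called higher, Txn1, Txnrd2, Gstm1, Gsto1 and Mgst3 were higher in all 6 and Prdx3 in 4. The uncalled Srxn1, Prdx6, Sod2 and Gstp1 were also lower in all 6, and the uncalled Gpx4 was higher in all 6. These are ratios of plain CPM, and no share over all genes is given for them. The size moved with the band for some genes. The log2 ratio of Txnip went from -0.04 and -0.56 in the lowest band (Experiments 1 and 2) to -0.73 and -1.09 in the highest, while that of Prdx1 went from 0.49 and 0.34 to 0.04 and -0.01. Those of Gpx3 were -0.88 in both experiments in the lowest band, -0.58 and -0.67 in the middle and -0.70 and -1.07 in the highest. Those of Gclm stayed between -0.56 and -0.41. In a fit to the cells of the middle band alone, 3 of the 37 genes were called higher (Gstm1, Gsto1 and Mgst3) and 11 lower (edgeR), against 16.8% and 16.1% of all genes tested there, and Txn1 was no longer called (0.29, edgeR adjusted p = 0.136), nor were Txnrd2 (0.16), Prdx3 (-0.02) and Gss (-0.27). Srxn1 (-0.31), Gstp1 (-0.46) and Sod2 (-0.28) were called lower there and not over all cells.

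**Figure D5:**
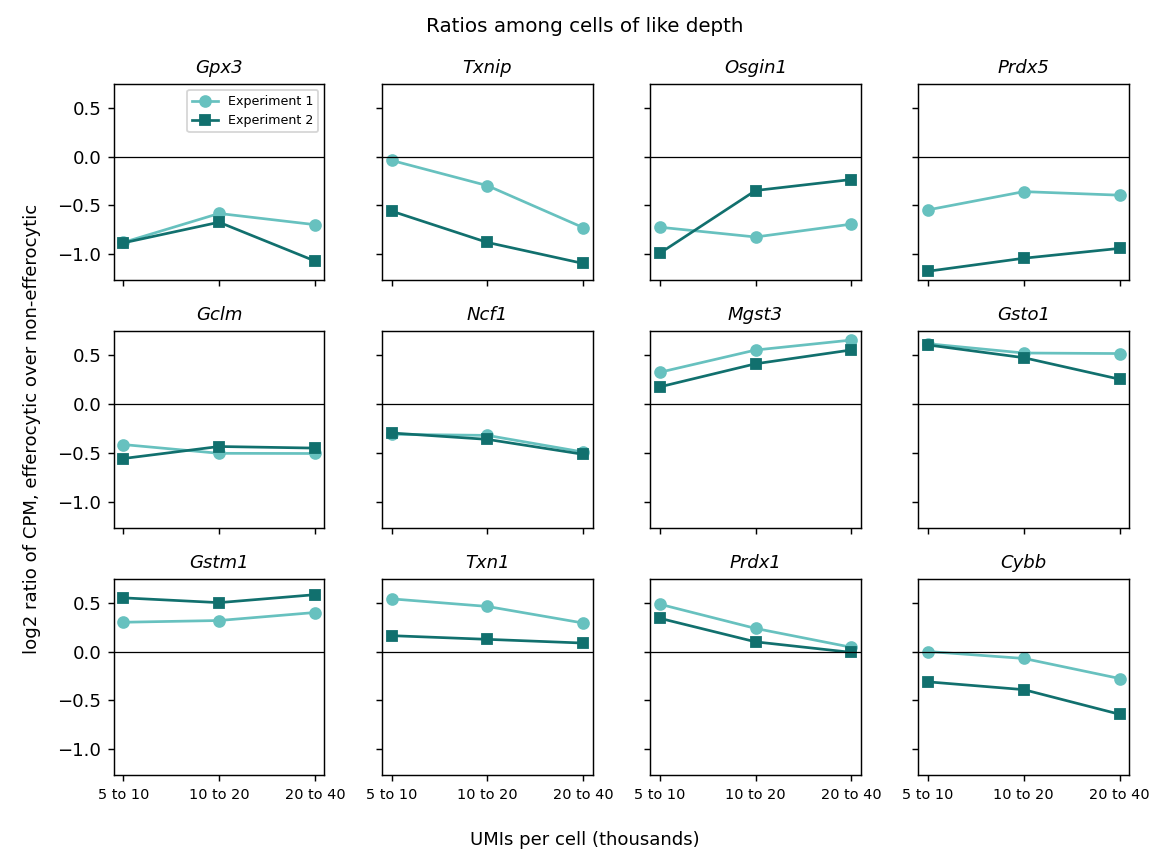
Log2 ratio of CPM, efferocytic over non-efferocytic BM macrophages, for 12 genes among cells of like depth (x axis, UMIs per cell in units of 1000) in Experiment 1 (light circles) and Experiment 2 (dark squares). Gclm and Gstm1 are nearly level, Txnip and Cybb fall with depth, and Prdx1 approaches 0 in the deepest cells.

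Related genes outside the module were counted by list, in the same fit, where 19.9% of all genes tested were called higher and 19% lower. The lists are small, and their shares are given as a description. Of 15 genes that supply NADPH, 4 were called higher and 1 lower (26.7% and 6.67%). G6pdx, the entry enzyme of the pentose phosphate pathway, was at 110 and 120 against 103 and 121 CPM and was not called. Mthfd2, of the mitochondrial folate cycle, was at 8.29 and 8.85 against 9.50 and 15.2 CPM (0.60 ± 0.13, edgeR adjusted p = 0.00825). Nadk, the kinase that turns NAD into NADP, was at 101 and 85.9 against 61.2 and 52.5 CPM and fell by 0.61 on the log2 scale (SE 0.08, edgeR adjusted p = 0.000984).

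Of 26 further glutathione genes tested, 3 were higher and 5 lower (11.5% and 19.2%). Slc25a39, a carrier of glutathione into mitochondria, was called higher (0.29 ± 0.08) and the transferase Gstt2 lower (-0.51 ± 0.12, edgeR adjusted p = 0.0252 and 0.0114). Of 24 thioredoxin-fold and repair genes, 7 were higher and 9 lower (29.2% and 37.5%). Txndc5, a disulfide isomerase of the endoplasmic reticulum, went from 34.5 and 30.9 to 48.3 and 50.3 CPM (0.70 ± 0.08, edgeR adjusted p = 0.000503). Arrdc3, an arrestin-like relative of Txnip, went from 28.1 and 19.5 to 11.6 and 3.88 CPM (-1.67 ± 0.22, edgeR adjusted p = 0.0011), on the same side as Txnip.

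Of 21 other NRF2 targets and partners, 6 were higher and 4 lower (28.6% and 19.0%). Hmox1, the haem oxygenase, was at 291 and 303 against 374 and 366 CPM (0.42 ± 0.10, edgeR adjusted p = 0.0133), and the quinone reductase Nqo2 at 28.1 and 29.8 against 40.1 and 45.4 CPM (0.67 ± 0.07, edgeR adjusted p = 0.000514). The epoxide hydrolase Ephx1 was at 90.4 and 64.2 against 18.2 and 7.93 CPM (-2.55 ± 0.16, edgeR adjusted p = 6.78e-05). Of 7 other NADPH oxidase genes tested, 2 were lower (28.6%) and none higher.

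Of 17 genes for selenoprotein synthesis and other selenoproteins, 6 were higher and 1 lower (35.3% and 5.88%). Selenow, a small redox protein, was at 77.3 and 76.3 against 151 and 106 CPM (0.82 ± 0.13, edgeR adjusted p = 0.00238). Selenop, the secreted selenium carrier, was at 3063 and 2610 against 1497 and 875 CPM and fell by 1.20 on the log2 scale (SE 0.18, edgeR adjusted p = 0.00169). Gpx3 and Selenop, both secreted, were thus both lower by share.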

How the data were processed

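Cell Ranger (3.0.0 in the submitters' processing notes and the headers of Experiment 1, 3.1.0 in the headers of Experiment 2) was used by the authors with mm10, and the deposited counts are raw UMIs of every barcode, neither normalized nor filtered. Whether the counting used strand is not given in the sources used here. Counts of the cells were summed per library, since cells of 1 library are not replicates. The sums were tested with edgeR 4.0.16 (glmQLFit, glmQLFTest, TMM, filterByExpr, R 4.3.3), with the Benjamini-Hochberg adjustment over 13869 genes and a threshold of 0.05. The SE is the log2 fold change divided by the square root of F. The experiment, given by the labels, was a block. Libraries of one experiment deviated together from their group means (r = 0.69 across 7097 genes of at least 10 CPM, which are not independent). Doublets were not removed, and leaving out the top 5% of cells by UMIs was an alternative. Gene positions are those of GENCODE vM21. All 37 genes are accounted for. Of each further list, the called gene with the largest fold in each direction and a mean of at least 10 CPM was named, with Slc3a2, Hmox1 and G6pdx. The values of 1 further gene are not reported here. The members, lists and tests were chosen with earlier results of these data known. Intervals for counting error are not given.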

Additional observations from a re-analysis of the deposited data

How the results depend on the processing

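Among the 37 genes 6 were called higher and 9 lower, and among the further redox genes 26 and 22. Of all genes tested, 19.9% and 19% were. These calls depend on the pairing of libraries by experiment. With no replicate block edgeR called 3 and 1, and 13 and 12, against 9.27% and 7.74% of all genes. With 1 library left out, which allows no block, the calls were 0 to 3 higher and 0 to 6 lower, and 0 to 14 and 0 to 15. By UMIs per cell they were 23 and 0, and 71 and 6, against 49.9% and 4.23% of all genes. With 10% of UMIs subtracted as free RNA they were 3 and 5, and 9 and 13. In cells with 10000 to 20000 UMIs, an alternative chosen after seeing the data, they were 3 and 11, and 17 and 22. Of all genes tested there, 16.8% and 16.1% were called. A mean of at least 10 CPM left 15 further redox genes higher. The other alternatives (DESeq2 1.42.0, library totals, no filter on genes, filters on cells, marker and cycling cells left out, shared barcodes of Experiment 2 left out, the last also chosen after seeing the data) gave 5 to 9 of the 37 genes higher and 7 to 13 lower. With marker cells left out, 18% of all genes were called higher and 17.1% lower. Shares over all genes are not given for the rest of these, for at least 10 CPM or for free RNA subtracted. Counts under those settings are therefore no result about the 37 genes in particular. Gstm1, Gsto1 and Mgst3 were called under every alternative with 4 libraries, and Osgin1 under all of these but UMIs per cell.

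Some genes changed sign under an alternative. By UMIs per cell the log2 fold changes were 0.205 for Slc7a11, 0.30 for Gclm, 0.355 for Gss, 0.45 for Gsr, 0.38 for Srxn1, 0.33 for Nqo1, 0.13 for Prdx5, 0.57 for Sod1, 0.52 for Cat, 0.38 for Gstp1, 0.52 for Mgst1, 0.27 for Cybb, 0.23 for Ncf1 and 0.36 for Ncf4. By library totals, with a median of -0.12 over all genes, they were -0.084 for Nfe2l2, -0.0038 for Keap1, -0.011 for Gclc, -0.019 for Txnrd1, -0.016 for Prdx2, -0.030 for Prdx6 and -0.049 for Sod2. At a mean of at least 10 CPM they were -0.073 for Nfe2l2, -0.0069 for Txnrd1, -0.0042 for Prdx2, -0.018 for Prdx6 and -0.037 for Sod2. In cells with 10000 to 20000 UMIs they were -0.045 for Nfe2l2, -0.064 for Txnrd1, -0.17 for Prdx2, -0.016 for Prdx3, -0.090 for Prdx6, 0.245 for Sod1, -0.28 for Sod2, 0.010 for Cat and -0.0034 for Glrx. Nfe2l2 was at -0.020 with marker cells left out and at -0.014 without the top 5% of cells. With 1 library left out, the ranges that crossed 0 were -0.11 to 0.17 for Nfe2l2, -0.79 to 0.0057 for Slc7a11, -0.15 to 0.34 for Gclc, -0.020 to 0.21 for Txnrd1, -0.59 to 0.0072 for Nqo1, -0.017 to 0.22 for Prdx2, -0.011 to 0.81 for Gpx1, -0.27 to 0.18 for Sod1, -0.027 to 0.16 for Sod2, -0.22 to 0.035 for Cat, -0.59 to 0.13 for Gstp1 and -0.31 to 0.11 for Mgst1. The cause was not tested. Of the genes that turned with 4 libraries on another setting than UMIs per cell, Prdx3 alone had been called. Slc7a11 and Nqo1, the rarest members, had the fewest UMIs behind their values.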
